A study of Mus musculus with 19 samples.

Results

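The separated endoderm (ysE) and mesoderm of the visceral yolk sac (VYS) at E9.25 were compared over RefSeq transcripts, using the 4 RNA-seq libraries of these layers among 11 RNA-seq libraries and 19 samples in all. The series examined imprinted expression in extra-embryonic endoderm and in cystic embryoid bodies (EBs), and the layers serve in it as the in vivo tissues. Both groups were FVB/N embryos with no mutation or treatment named, with 2 libraries each (A and B), and every sample pooled an entire litter. After Dispase II treatment the layers were parted by hand, ysE being taken alone, while the mesoderm kept its vessels and the basement membrane. Total RNA was depleted of ribosomal RNA, and all 4 libraries were strand-specific (dUTP). Whether A and B of the layers came from the same litters is not stated, so p-values measure the spread between these samples only.

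The VYS surrounds the embryo with an outer epithelium, the visceral endoderm, and an inner mesoderm that forms mesothelium, fibroblasts, blood vessels and the first blood cells. The endoderm takes up maternal protein by endocytosis, degrades it and secretes plasma proteins and lipoproteins before the liver does so. The mesodermal blood islands release primitive erythroid cells, which carry embryonic globins, and signals such as hedgehog pass from the endoderm to the mesoderm.

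Summed counts ranged from 107121229 to 169981821 per library, and Pearson's r of log2 CPM across transcripts was 0.991 between the ysE libraries and 0.983 between the mesoderm libraries. Of 30455 transcripts 21824 were tested, which belong to 16237 gene symbols. Levels are given as RPKM, reads scaled to transcript length and library size, in the order A and B. Fold changes are those of ysE over mesoderm on the log2 scale, from TMM-scaled counts tested by quasi-likelihood in edgeR, with p-values adjusted after Benjamini and Hochberg, at a false discovery rate (FDR) of 5%. The mesoderm A library stood apart. Of 11586 genes with at least 1 RPKM in either mesoderm library, 64 were more than 4-fold higher in A and 2 in B, while between the ysE libraries the numbers were 0 and 2 of 10440. Genes of trophoblast and decidua, described last, were among the 64.

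At this threshold 6540 transcripts were higher in ysE, which is 30% of those tested, and 6620 were higher in mesoderm, which is 30.3%. At least 4-fold differences were less even, with 1671 transcripts (7.66%) higher in ysE and 3465 (15.9%) higher in mesoderm. Counted once per gene, these were 1320 and 2562 genes. Their median level in the higher layer was 5.32 RPKM for ysE genes and 1.08 for mesoderm genes. Among those with a mean of at least 5 RPKM in the higher layer the order turned, with 671 genes in ysE and 578 in mesoderm. The split of all calls, 49.7% in ysE and 50.3% in mesoderm, depended on the scaling: with summed counts and no TMM factors it was 33.8% and 66.2%, and the median shift of the fold changes was -0.31 on the log2 scale. Changes under this size are therefore read here relative to the TMM scale only.

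The 4 genes that mark the layers followed the labels. The authors had assessed the separation of the layers by RT-qPCR of Afp and Flk1 (Kdr), so the direction of Afp and Kdr is no independent result. Afp, the alpha-fetoprotein of fetal plasma (chromosome 5, 90490714 to 90508907 of GRCm38.p6), had 6071 and 6628 RPKM in ysE and 700.4 and 1255 in mesoderm (log2 fold change 2.97, standard error 0.29, adjusted p = 0.000103, edgeR). With all 11 RNA-seq libraries in 1 fit, where they share an estimate of the spread, Afp kept its fold at 3.01 and did not pass (adjusted p = 0.125, edgeR). Amn, which anchors the cubilin receptor in the apical membrane, had 174 and 249 RPKM in ysE and 19.5 and 31.9 in mesoderm. Kdr, the VEGF receptor of endothelium and its precursors, had 1.71 and 2.58 RPKM in ysE and 47.1 and 47.0 in mesoderm (log2 fold change -4.18, standard error 0.21, adjusted p = 5.74e-06, edgeR). Col1a1, a fibrillar collagen of mesenchyme, had 7.73 and 15.5 RPKM in ysE and 174 and 198 in mesoderm. Of 49 genes higher in ysE that were followed one by one, 18 had folds that moved by over 1.5 times without mesoderm B, with a median shift of 0.52 on the log2 scale over the 49. Without any other library at most 1 did, and of 53 genes higher in mesoderm at most 4. Each of the 4 marker genes was also found at a lower level in the layer it does not mark.

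The gene lists used from here on were chosen with earlier results of these data known. Counts and medians over them are descriptions and no independent result. All 12 markers of visceral endoderm epithelium were higher in ysE, with a median log2 fold change of 3.31 beside -0.02 over all transcripts tested. They included the secreted proteins Ttr and Apoa1, the nuclear receptor Hnf4a and the microvillus protein Vil1. Hnf4a had 87.1 and 98.4 RPKM in ysE against 5.23 and 11.5 in mesoderm, and Vil1 123 and 137 against 6.84 and 13.6. With all 11 libraries in 1 fit 10 of the 12 visceral endoderm markers were higher in ysE and 2 did not pass. Over all 24858 transcripts of that fit, 3401 were higher in ysE and 4212 in mesoderm. All 12 endothelium markers were higher in mesoderm, with a median of -4.36. Tek, the angiopoietin receptor, had 1.54 and 1.78 RPKM in ysE and 47.5 and 41.6 in mesoderm, and Cldn5, a tight junction protein of endothelium, 1.06 and 1.23 against 49.5 and 34.4.

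The 11 primitive erythroid markers in the table were all higher in mesoderm, with a median of -4.73. The embryonic beta-globins were the most abundant of the genes at least 4-fold higher in mesoderm, Hbb-bh1 with 21222 and 16453 RPKM and Hbb-y with 18741 and 13955. In ysE Hbb-bh1 had 444 and 516 RPKM, and Hbb-y had 333 and 419. The embryonic alpha-globin Hba-x had 3884 and 3741 RPKM in mesoderm and 73.6 and 83.7 in ysE, while Hba-a1 shares near-identical sequence with Hba-a2 and its level is uncertain. Gata1, the erythroid transcription factor, had 13.8 and 13.7 RPKM in mesoderm against 0.413 and 0.46.

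Of 12 markers of mesenchyme, smooth muscle and mesothelium, 10 were higher in mesoderm and 2 did not pass the test, with a median of -4.50. Postn, a matrix protein, had 386 and 228 RPKM in mesoderm and 5.92 and 7.47 in ysE, and the smooth muscle actin Acta2 133 and 109 against 2.97 and 3.7. Pdgfra did not pass, with 4.28 and 4.86 RPKM in ysE and 8.26 and 4.8 in mesoderm, and Msln, a surface protein of mesothelium, did not pass either. Without mesoderm B both passed, with log2 fold changes of -0.50 and -1.72, and all 12 genes of the list were then higher in mesoderm. Where a library is left out, 1 library stands for its layer and is assumed to vary as the other layer does. The 12 macrophage and blood progenitor markers were all higher in mesoderm, with a median of -2.96, most of them at a mean under 2 RPKM there. With all 11 libraries in 1 fit 10 of these 12 passed, and 9 of the 12 mesenchyme markers. Mrc1, the mannose receptor, had 57.0 and 55.8 RPKM in mesoderm, while Csf1r, the receptor that macrophages depend on, had 2.62 and 2.2 RPKM there and 0.884 and 1.15 in ysE.

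**Figure D1:**
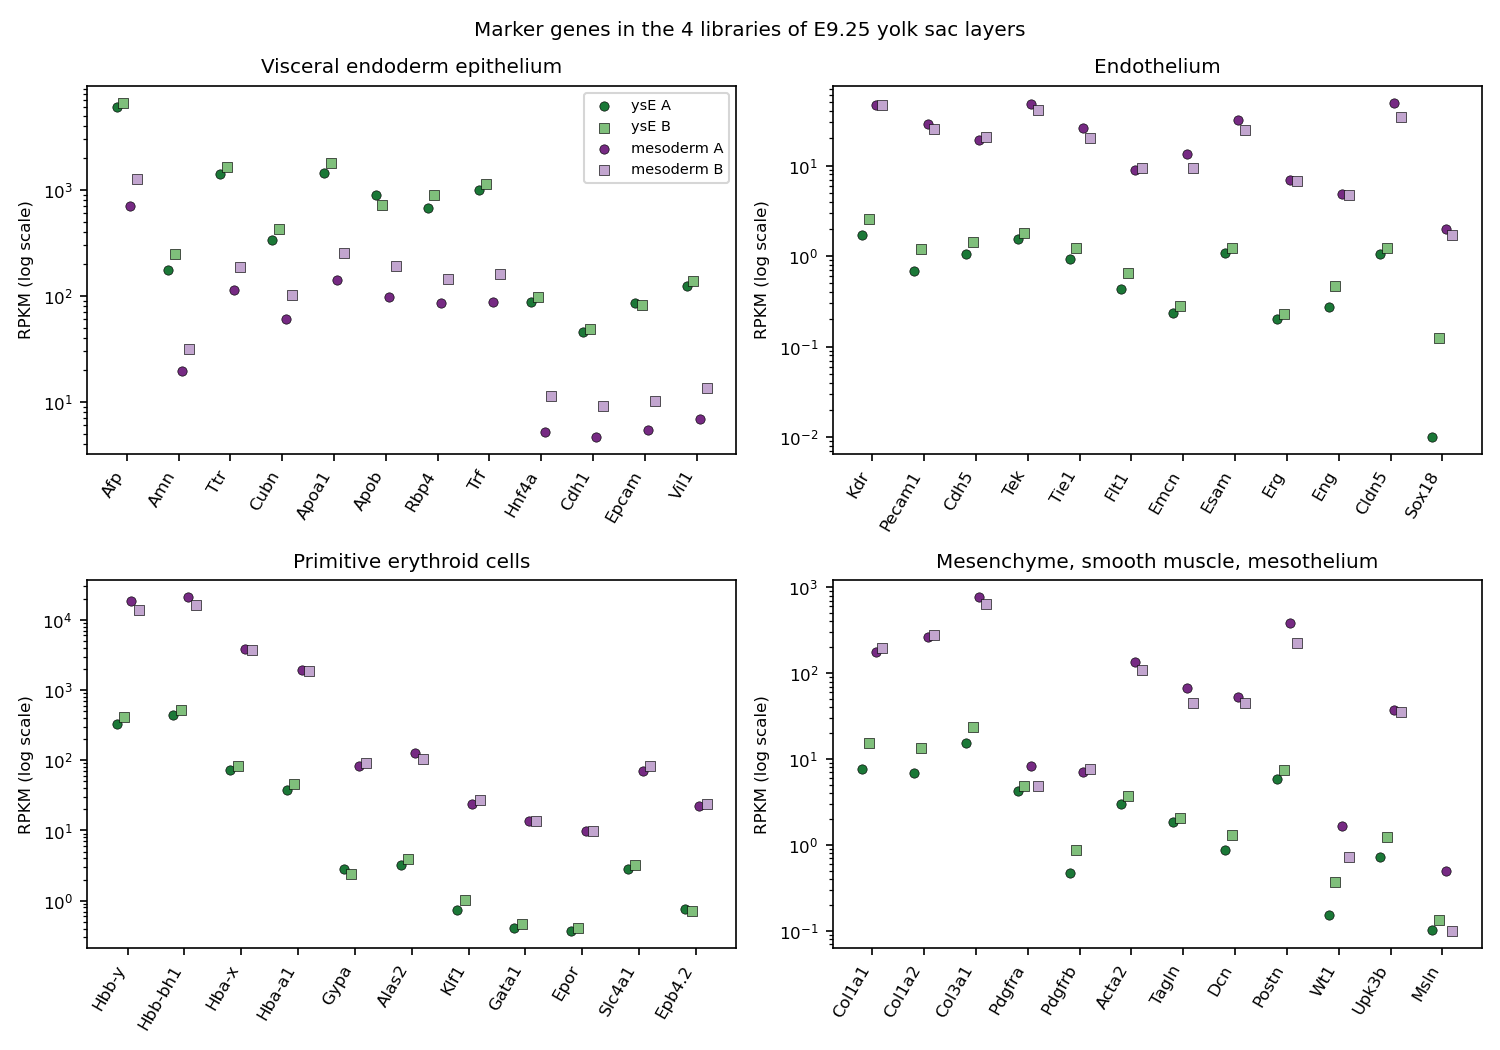
RPKM on a log axis of the marker genes of 4 cell types in the 4 libraries, 1 point per library. At an FDR of 5% the 12 visceral endoderm markers are higher in ysE and the 12 endothelium and 11 erythroid markers in mesoderm. Over all transcripts tested 30% are higher in ysE and 30.3% in mesoderm. The lists were chosen with earlier results of these data known. The layers overlap for Pdgfra and Msln among the mesenchyme markers.

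The level of each layer's markers in the other layer was measured as the TMM-scaled CPM in percent of the mean of the layer where the gene is high. The 12 visceral endoderm markers stood at 4.27% to 13% of their ysE level in mesoderm A (median 7.31%) and at 8.74% to 22.2% in mesoderm B (median 12.8%). Mesoderm B was above mesoderm A for 12 of 12, by 1.68 to 2.26 times. Cubn, the endocytic receptor cubilin, gave the highest value in both libraries and Vil1 the lowest. In the other direction the medians in ysE A and B were 4.39% and 5.79% for endothelium, 3.58% and 3.62% for erythroid cells, 3.63% and 5.19% for mesenchyme and 16% and 10.8% for macrophages and progenitors. By medians the last list thus stood above the visceral endoderm markers of mesoderm A, the first 3 below them. With the CPM of a list summed first, the last list stood at 6.36% and 7.38% in ysE A and B. That is below the 9.16% and 17.2% of visceral endoderm markers in mesoderm A and B. The sum of the last list is mostly that of Mrc1 and Cd34. Mrc1 had 34790 and 39733 counts in mesoderm A and B, and Cd34 10849 and 10884. Some genes of the last list had few counts in ysE, such as Emr1 with 18 and 20 and Fcgr1 with 19 and 17. Erythroid markers covered a narrow range in both ysE libraries, from 2.39% to 4.61% in A and from 2.61% to 4.999% in B. The endothelium and mesenchyme markers were higher in ysE B than in ysE A for 12 of 12 each, Col1a2 having 6.87 RPKM in A and 13.5 in B. The mesenchyme markers that did not pass the test, Pdgfra and Msln, stood at 81.5% and 42.8% in ysE A. Macrophage and progenitor markers were spread from 3.72% to 45.5% in ysE A. In bulk RNA, cells of the other layer, fewer cells of a type and less RNA per cell cannot be told apart, and the source of these levels was not tested.

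**Figure D2:**
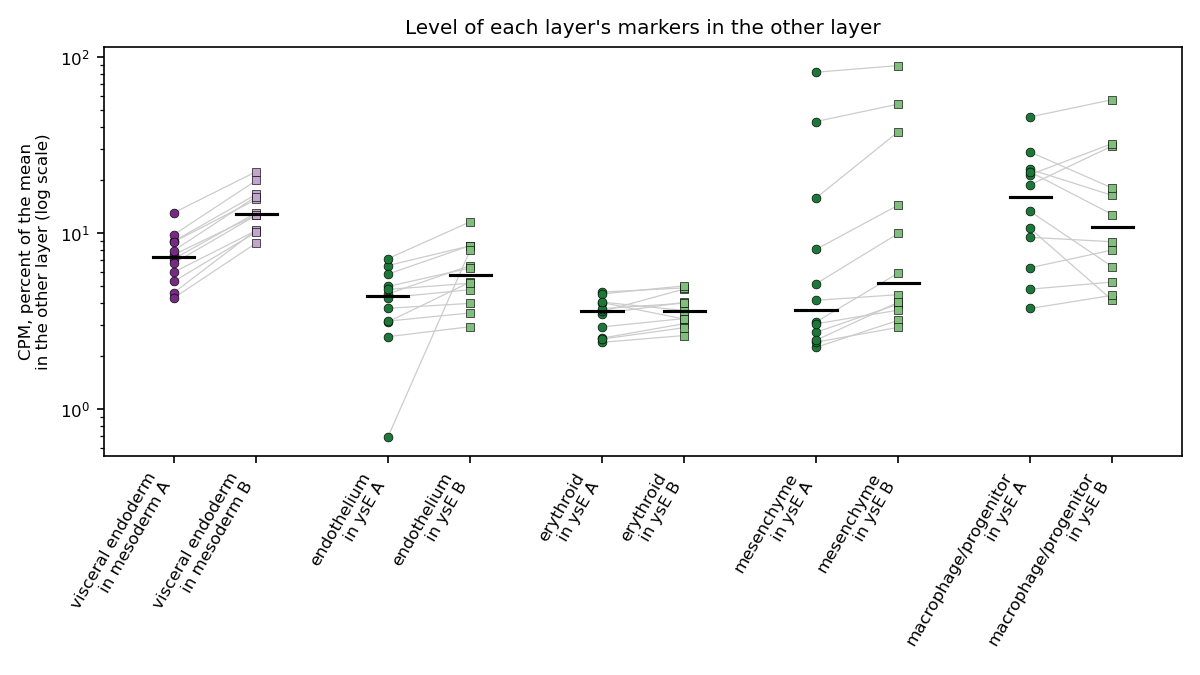
CPM of marker genes in the layer where they are low, in percent of their mean in the other layer on a log axis, with 1 point per gene and library, grey lines joining a gene and black bars at the medians. Visceral endoderm markers have medians of 7.31% and 12.8% in the mesoderm libraries, above the medians of 3.58% to 5.79% of endothelium, erythroid and mesenchyme markers in ysE, while macrophage and progenitor markers have medians of 16% and 10.8% in ysE.

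Large folds were unevenly shared between the layers. Among 4-fold genes with a mean of at least 5 RPKM in the higher layer, 15 of 671 were at least 16-fold higher in ysE and 259 of 578 in mesoderm. Their median log2 fold changes were 2.99 and 3.80 in size. No count at all in the other layer was seen for 4 of the 4-fold transcripts of ysE and 69 of mesoderm.

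**Figure D3:**
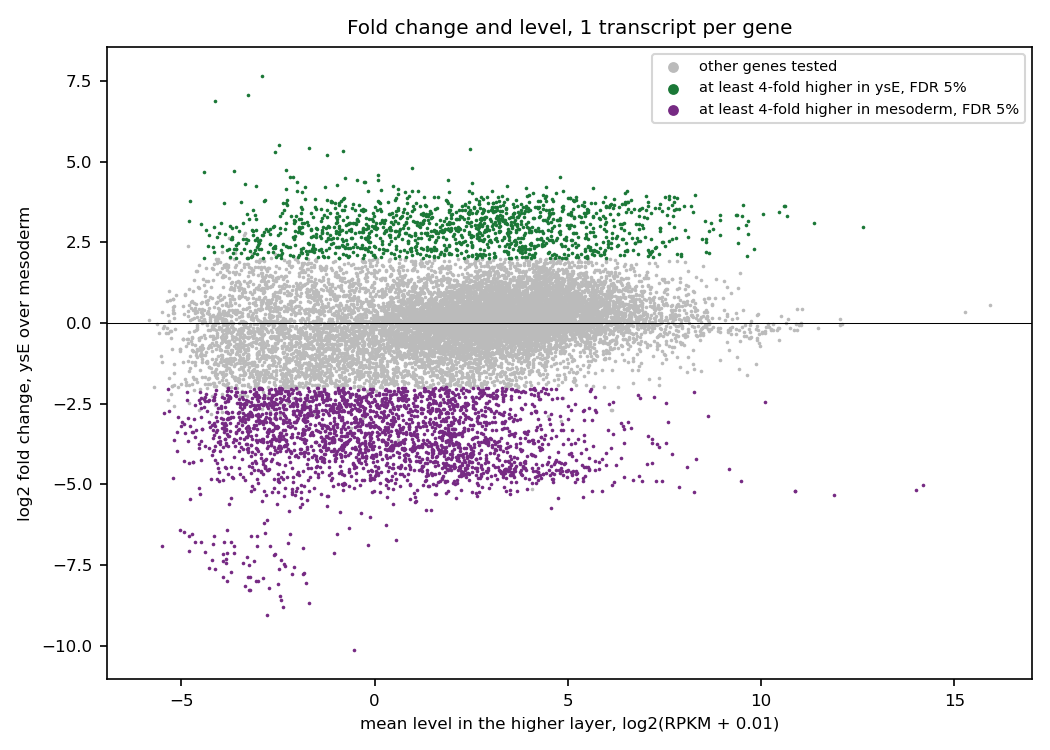
Fitted log2 fold change of ysE over mesoderm against the mean level in the higher layer, log2(RPKM + 0.01), with 1 point per gene. Above 5 RPKM few green points (ysE) pass a log2 fold change of 4, while 259 purple points (mesoderm) pass it in size.

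Among genes at least 4-fold higher in ysE, the most abundant were Afp, Morf4l2, Apoa1, S100g, Ttr, Slc2a3, Trf and Sepp1. Trf carries iron in plasma and had 993 and 1138 RPKM in ysE against 88.2 and 160.0 in mesoderm. S100g, an intracellular calcium-binding protein of absorptive epithelia, had 1747 and 1422 against 114 and 201. Morf4l2, a chromatin protein encoded on the X chromosome, had 2818 and 2429 against 322 and 418. The largest folds at 5 RPKM or more included Foxa3 with 4.53, the lectin Mbl1 with 4.34, the kinase Sgk2 with 4.25 and Haao, an enzyme of tryptophan breakdown, with 4.17 on the log2 scale. In mesoderm, abundant genes besides the globins were Tmsb4x, an actin-binding peptide, Col3a1 and the imprinted gene Mest, which had 586 and 566 RPKM against 18.4 and 22.9 in ysE. The largest fold at 5 RPKM or more was that of the microRNA hairpin Mir1903 (-5.73), whose counts of 0 and 9 in ysE leave its size open and whose reads cannot be told apart from those of Nrp1, in which it lies. Others among the 8 largest were Gja5, a gap junction protein of arteries (-5.44), the myosin light chain Myl9 (-5.39), Hba-x (-5.32) and Fkbp7 (-5.31).

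The apparatus for uptake of maternal protein was described by 12 genes, all higher in ysE, with a median of 2.48. The receptors Cubn and Lrp2 bind a wide range of proteins in the apical pits. Cubn had 336 and 429 RPKM in ysE and 61.1 and 102 in mesoderm, and Lrp2 85.9 and 96.1 against 16.8 and 23.0. The folate receptor Folr1 had the largest fold of this group (3.76, standard error 0.34, adjusted p = 6.48e-05, edgeR). The smallest was that of Fcgrt, the Fc receptor that carries maternal immunoglobulin, with 64.7 and 84.7 RPKM in ysE and 31.0 and 29.0 in mesoderm.

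Apolipoproteins and the assembly of lipoproteins are described by single genes, each of which passed the test. Apoa4 had 710.4 and 745 RPKM in ysE against 62.3 and 116, and Mttp, which loads lipid onto apolipoprotein B, 217 and 211 against 16.4 and 29.7. Apoe was also well expressed in mesoderm, with 202 and 249 RPKM against 696 and 885 in ysE.

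All 10 of the 12 secreted plasma proteins that were tested were higher in ysE, with a median of 3.16. With all 11 libraries in 1 fit 12 were tested, 7 of them higher in ysE and 5 not passing. The fibrinogen chain Fgb had 284 and 342 RPKM in ysE and 15.4 and 33.0 in mesoderm. Albumin, the main plasma protein of the liver, was barely detected at this stage, Alb having 0.221 and 0.194 RPKM in ysE, and without ysE A it did not pass (log2 fold change 2.01, adjusted p = 0.06, edgeR). In the 1 library of E12.5 ysE, made with a protocol that is not strand-specific, Alb had 80.5 RPKM and Fgb 1508. That difference was not tested, and stage and protocol cannot be told apart.

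Transporters of nutrients and metals were higher in ysE for 11 of 12 genes, with a median of 2.78. The glucose transporters differed among themselves. Slc2a3 had 1328 and 1504 RPKM in ysE and 115 and 204 in mesoderm, and Slc2a2 294 and 288 against 16.9 and 39.8. Slc2a1 did not pass the test, with 243 and 267 RPKM in ysE and 273 and 268 in mesoderm (log2 fold change 0.20, standard error 0.13, adjusted p = 0.225, edgeR). The zinc and manganese importer Slc39a8 differed little for this list, at 0.92.

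Of 12 endodermal transcription factors, 8 were higher in ysE and 4 in mesoderm, with a median of 2.61. The forkhead factor Foxa3 had 24.5 and 30.9 RPKM in ysE and 0.91 and 1.97 in mesoderm (4.53, standard error 0.36, adjusted p = 3.77e-05, edgeR), and Foxa2 13.2 and 14.5 against 0.725 and 1.88. Gata4 and Gata6, related zinc finger factors of early endoderm, went in opposite directions. Gata4 had 6.68 and 7.82 RPKM in ysE against 1.04 and 1.37, while Gata6 had 1.84 and 2.31 in ysE against 4.63 and 4.54. Sox17, Sox7 and Hhex were higher in mesoderm, with log2 fold changes of -2.78, -2.12 and -2.93, and all 3 are also known from endothelium. With all 11 libraries in 1 fit Gata6 and Sox7 did not pass and the list had 8 genes higher in ysE and 2 in mesoderm, and without ysE B Foxa1 lost its call.

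Of 12 mesodermal, vascular and blood transcription factors, 9 were higher in mesoderm and 3 did not pass, with a median of -4.00. Tal1, required for blood formation, had 19.3 and 21.8 RPKM in mesoderm and 0.666 and 0.653 in ysE. Foxf1a, a factor of splanchnic and yolk sac mesoderm, had 28.2 and 31.7 against 0.962 and 1.39. Etv2, which acts early in the formation of endothelium, was at or below 0.274 RPKM in every library and did not pass. Twist1 did not pass either, with 1.5 and 2.35 RPKM in ysE and 2.11 and 1.3 in mesoderm, but it passed without mesoderm A, higher in ysE by 0.80 on the log2 scale. Without ysE A, Gata2 and Wt1, a factor of mesothelium on the mesenchyme list, lost their calls. Etv2 passed there against ysE B, which had 0 counts.

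Signals between the layers were described by 12 ligands and 12 receptors or responders. Of the ligands 2 were higher in ysE and 8 in mesoderm, with a median of -1.90, beside 30% and 30.3% of all transcripts tested. With all 11 libraries in 1 fit the ligands had 2 higher in ysE, 6 in mesoderm and 4 not passing. Ihh, the hedgehog ligand of visceral endoderm, had 3.79 and 5.06 RPKM in ysE and 0.549 and 0.941 in mesoderm (2.84, standard error 0.29, adjusted p = 0.000127, edgeR). Bmp6 was the other ligand higher in ysE, with 3.28 and 4.49 RPKM against 1.27 and 1.62. Mesoderm was higher in Bmp4, with 18.3 and 17.6 RPKM against 0.538 and 0.694, in Angpt1, the ligand of Tek, and in Cxcl12, the ligand of Cxcr4. Vegfa did not differ by the test, with 12.2 and 14.3 RPKM in ysE and 14.8 and 14.7 in mesoderm (0.12, standard error 0.12, adjusted p = 0.424, edgeR).

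Of the receptors and responders, 11 were higher in mesoderm and 1 in ysE, with a median of -3.27. The hedgehog receptor Ptch1, itself induced by the pathway, had 12 and 12.9 RPKM in mesoderm and 1.83 and 2.93 in ysE. Gli1, a transcriptional target of hedgehog, had 1.48 and 1.51 against 0.089 and 0.142, and Hhip, which binds the ligand, 5.13 and 5.3 against 0.195 and 0.272. Nrp1, a coreceptor for VEGF, had 56.6 and 47.6 RPKM in mesoderm against 1.69 and 1.99. The exception was Id1, a target of BMP signalling, with 35.3 and 42.5 RPKM in ysE and 17.8 and 14.9 in mesoderm.

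Basement membrane and matrix genes were higher in mesoderm for 7 of 12 and did not pass for 5, with a median of -0.94. Of all transcripts tested 30.3% were higher in mesoderm. Nid1, which links laminin to collagen IV, had 29.2 and 27.4 RPKM in mesoderm against 2.22 and 2.51, and Lama4, a laminin chain of vessels, 17.5 and 16.3 against 0.558 and 0.68. The collagen IV chain Col4a1 did not pass, with 116 and 129.9 RPKM in ysE and 193 and 174 in mesoderm, and the same held for Lama1 and Lamb1. These 3 had log2 fold changes of -0.30, -0.32 and -0.25 and depended on scaling, since without TMM factors 11 of the 12 genes of this list were higher in mesoderm. Of 6 markers of parietal endoderm, which lines Reichert's membrane outside the yolk sac, 3 were higher in mesoderm and 3 did not pass, with a median of -0.85. Without TMM factors 5 of these 6 were called, while of all 21824 transcripts 8825 were then higher in mesoderm. Fst, which did not pass, was higher in ysE without mesoderm A and higher in mesoderm without mesoderm B. With all 11 libraries in 1 fit the counts in mesoderm were 4 of 12 for the basement membrane list and 1 of 6 for parietal endoderm. Over all transcripts of that fit 4212 of 24858 were higher in mesoderm, a share close to 1 of 6.

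Of 11 imprinted genes tested, 7 were higher in ysE, 2 in mesoderm and 2 did not pass, with a median of 2.23. Over all transcripts tested 30% were higher in ysE and 30.3% in mesoderm. Phlda2, a growth-restraining gene of the placenta and yolk sac, had 172 and 191 RPKM in ysE and 7.72 and 21.3 in mesoderm (3.91, standard error 0.45, adjusted p = 0.000212, edgeR), and without mesoderm B its log2 fold change was 4.90. Slc22a2, an organic cation transporter, had 23.2 and 25.9 RPKM against 1.83 and 3.72, and Sfmbt2, a polycomb-related gene, 12.7 and 14.6 against 3.3 and 3.38. Igf2, the fetal growth factor, was higher in mesoderm, with 292 and 322 RPKM against 98.5 and 89.1. With all 11 libraries in 1 fit 6 imprinted genes were higher in ysE and 0 in mesoderm, Igf2 keeping its fold at -1.39 without passing (adjusted p = 0.0582, edgeR). Its neighbour H19 did not pass, with 1520.0 and 1647 RPKM in ysE and 2046 and 1963 in mesoderm. Allelic expression was not analysed here. Of 12 reference genes 6 were higher in ysE and 1 in mesoderm, with a median of 0.36 and log2 fold changes between -1.15 and 0.79. Without TMM factors 4 were higher in ysE and 2 in mesoderm, and with all 11 libraries 0 and 1. Their median was 0.35 with DESeq2, 0.054 without TMM factors, and 0.069 and 0.076 with limma at pseudocounts 1 and 0.1. These genes were thus offset towards ysE on the TMM scale and lay nearer to 0 without TMM factors.

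**Figure D4:**
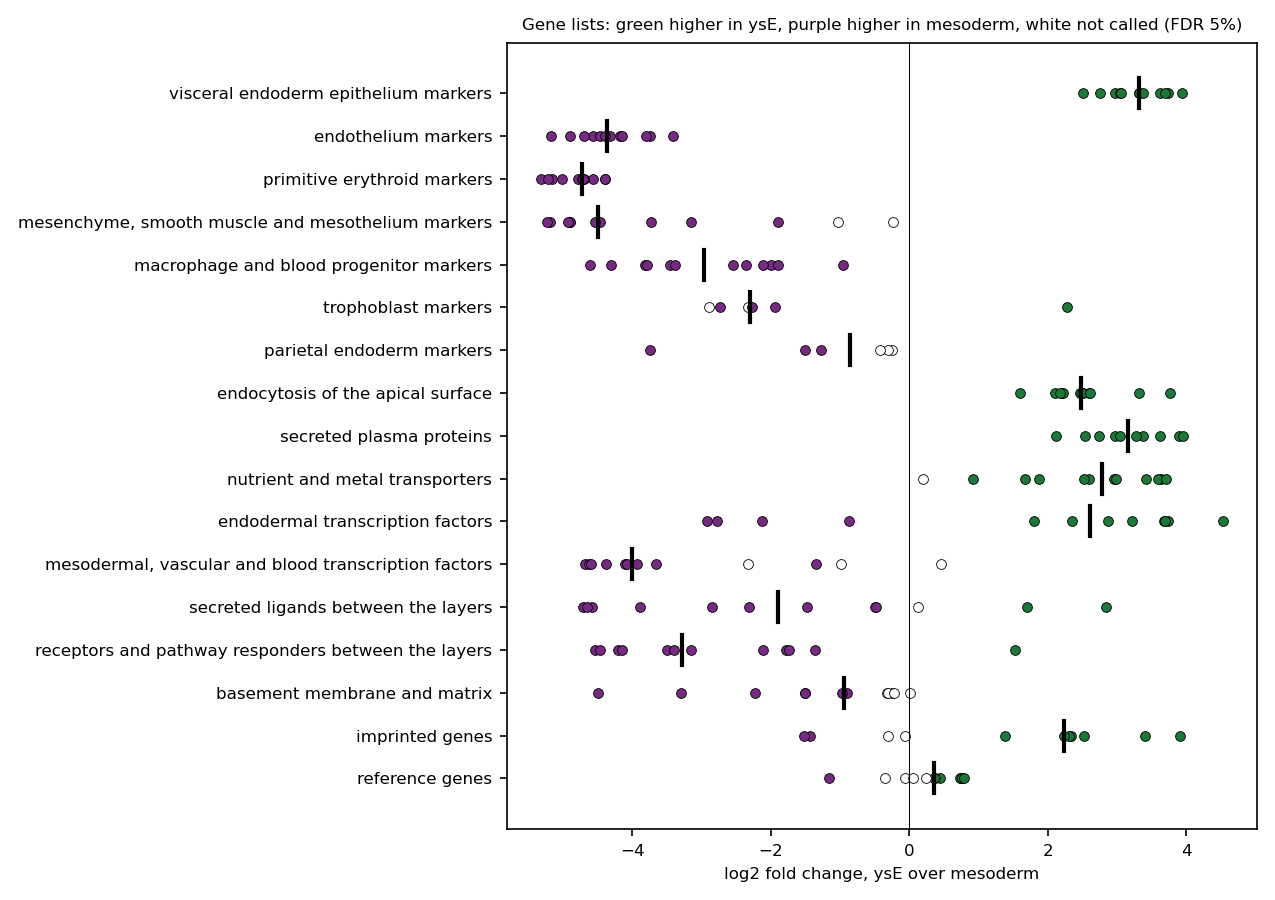
Log2 fold change of ysE over mesoderm for the tested genes of 17 lists, with 1 point per gene, green where higher in ysE, purple where higher in mesoderm and white where the test did not pass, and black bars at the list medians. Medians run from -4.73 for primitive erythroid markers to 3.31 for visceral endoderm markers, and the endodermal transcription factors are split between 8 and 4. The lists were chosen with earlier results of these data known.

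Reads over microRNA hairpins were compared too. They come from total RNA and are no measure of the mature microRNA. Of 168 hairpins tested, 47 (28.0%) were higher in ysE and 16 (9.52%) in mesoderm, with a median of 0.36, beside 30% and 30.3% of all transcripts. The cluster of 7 hairpins Mir290 to Mir295 on chromosome 7, known from embryonic stem cells and early embryos, was higher in ysE throughout, and Mir144 and Mir451, known from erythroid cells, were higher in mesoderm. They were singled out after their values were seen. Mature sequences from RefSeq on GRCm38.p6 are shown 5′ to 3′ with the seed, bases 2 to 8, in capitals, since 3 of the 3p products matched for the cluster share the seed AAGUGCU and 2 others matched differ from it in the last base only. The 3p product of Mir293 was also matched, is not shown and has another seed, GUGCCGC.
miR-291a-3p: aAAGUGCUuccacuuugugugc
miR-294-3p: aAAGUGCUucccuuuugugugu
miR-295-3p: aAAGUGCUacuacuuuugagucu
miR-290a-3p: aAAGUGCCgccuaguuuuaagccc
miR-291b-3p: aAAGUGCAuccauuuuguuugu
miR-144-3p: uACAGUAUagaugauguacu
miR-451a: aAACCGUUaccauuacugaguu

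The hairpin Mir291b had 98 and 206 counts in ysE and 17 and 18 in mesoderm, and Mir290 had 55 and 124 against 4 and 8. Log2 fold changes of the 7 hairpins ran from 2.76 for Mir291a to 5.38 for Mir292, whose mesoderm counts of 2 and 1 leave the size of its fold open. The long transcript D7Ertd143e, which spans 6 of the 7 hairpins, had 23.1 and 35.8 RPKM in ysE and 1.82 and 2.34 in mesoderm (4.09, standard error 0.24, adjusted p = 1.15e-05, edgeR). Its reads and those of the hairpins inside it cannot be told apart. Mir144 had 32.6 and 16.2 RPKM in mesoderm and 0.381 and 0.845 in ysE, and Mir451 had 53 and 48 counts in mesoderm against 1 and 4. Without ysE B, Mir291a no longer passed the test, with a log2 fold change of 2.41 (adjusted p = 0.0503, edgeR), and with all 11 libraries in 1 fit Mir291a, Mir291b and Mir295 did not pass.

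Start sites of the layer-specific genes were described with the other data of the series, without a test. RefSeq promoter windows, 250 bases before to 50 bases after a start on GRCm38.p6, were found for 1000 of the 1320 ysE genes, with 1281 starts, and for 1845 of the 2562 mesoderm genes, with 2381 starts. In whole E12.5 VYS, which holds both layers, a peak of H3K4me3, the histone mark of active promoters, overlapped 65.7% of the ysE starts, 55.1% of the mesoderm starts and 81.9% of 12014 starts of other genes tested. In E12.5 ysE the median methylation within 1000 bases of a start was 38.5% and 41.7% for ysE genes and 41.7% and 41.7% for mesoderm genes in the CxF and FxC libraries. Starts under 20% methylation made up 30.8% and 31.8% of those of ysE genes and 26.4% and 24.6% of those of mesoderm genes. Other genes had medians of 23.1% and 21.4%, with 45.3% and 46.4% of their starts under 20%. In E12.5 liver the medians were 62.2% and 64.0% for ysE genes and 50% and 58.3% for mesoderm genes, beside 33.3% and 40% for other genes. In cystic EBs they were 76.2% and 72.7%, 71.4% and 70%, and 40% and 37.5%. Windows needed 10 reads and held a median of 14 to 18, and the libraries came from crosses of CAST and FVB, at E12.5 or as EBs, rather than from the E9.25 layers.

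Letters of 4 known motifs were counted on both strands of these windows. GTTAAT, a half-site of the HNF1 factors, was in 10.6% of ysE starts, 5.04% of mesoderm starts and 4.37% of the other starts, beside 7.10% of all 32851 promoters of the table. CAAAGTCCA, bound by HNF4, was in 1.56%, 0.378% and 0.391%, beside 0.475% of all. AGATAA, bound by GATA factors, was in 9.06%, 9.45% and 6.58%, beside 11.2%, and the ETS motif CAGGAAGT in 3.67%, 3.95% and 3.33%, beside 3.33%. The classes differ in base composition, GC being 56.6% and 57.7% in the layer-specific windows and 60.6% in the others. The ratio of observed to expected CpG was over 0.6 in 32.9% of ysE, 38.0% of mesoderm and 69.7% of other windows. The shares of H3K4me3 peaks and methylation given above were not adjusted for this. A match is a description of letters and no evidence of binding.

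The 250 bases before the start are shown for genes of plasma proteins in ysE and for genes of blood and vessels in mesoderm, chosen after the search because they hold a motif, which is in capitals. Afp and Fgb hold an HNF1 half-site, 105 and 29 bases before the start, which reads ATTAAC in Fgb because the match is on the other strand. Alas2 and Epor hold the GATA motif, read as TTATCT for the same reason, and Egfl7 the ETS motif. Alas2, the heme synthesis enzyme of erythroid cells, had 128 and 103 RPKM in mesoderm against 3.23 and 3.9, and Epor, the erythropoietin receptor, 9.93 and 9.76 against 0.366 and 0.403. Egfl7, a secreted endothelial protein, had 116 and 71.2 against 8.41 and 10.0, values of a transcript that begins at another start than the one shown.
Afp, chr5:90490464-90490713, plus strand: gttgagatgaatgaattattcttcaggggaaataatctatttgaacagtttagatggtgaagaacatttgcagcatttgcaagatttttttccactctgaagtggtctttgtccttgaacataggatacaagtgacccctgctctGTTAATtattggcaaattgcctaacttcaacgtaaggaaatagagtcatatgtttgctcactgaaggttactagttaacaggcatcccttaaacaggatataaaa
Fgb, chr3:83049864-83050113, minus strand: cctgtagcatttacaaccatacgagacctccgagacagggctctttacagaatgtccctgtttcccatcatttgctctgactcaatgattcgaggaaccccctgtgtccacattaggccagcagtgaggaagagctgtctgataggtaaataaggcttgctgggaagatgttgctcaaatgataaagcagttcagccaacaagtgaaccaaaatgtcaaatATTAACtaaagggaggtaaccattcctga
Alas2, chrX:150547167-150547416, plus strand: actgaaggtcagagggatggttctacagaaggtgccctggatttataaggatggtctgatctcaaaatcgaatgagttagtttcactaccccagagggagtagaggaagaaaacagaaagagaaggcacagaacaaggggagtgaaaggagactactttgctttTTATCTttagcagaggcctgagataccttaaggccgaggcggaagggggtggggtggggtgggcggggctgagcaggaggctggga
Epor, chr9:21963577-21963826, minus strand: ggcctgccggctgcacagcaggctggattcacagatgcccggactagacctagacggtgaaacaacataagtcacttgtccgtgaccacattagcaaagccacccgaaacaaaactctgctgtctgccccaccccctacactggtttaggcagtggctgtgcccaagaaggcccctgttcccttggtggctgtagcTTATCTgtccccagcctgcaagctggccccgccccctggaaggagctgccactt
Egfl7, second of 3 starts, chr2:26583615-26583864, plus strand: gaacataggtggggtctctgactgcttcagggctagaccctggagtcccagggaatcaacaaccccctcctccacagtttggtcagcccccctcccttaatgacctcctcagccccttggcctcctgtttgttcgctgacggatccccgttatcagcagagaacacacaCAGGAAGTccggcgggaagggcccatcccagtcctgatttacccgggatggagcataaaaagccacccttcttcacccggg

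Levels of the layer-specific genes in other tissues were read without a test, as protocols differed. Of the genes 4-fold higher in E9.25 ysE, 76.1% had at least 1 RPKM in E12.5 ysE, 41.1% in E12.5 liver and 51.0% in cystic EBs, beside 63.8%, 65.9% and 72.0% of all genes tested. Of the genes 4-fold higher in mesoderm, 11% reached 1 RPKM in E12.5 ysE, 44.1% in liver and 43.1% in cystic EBs. In their own E9.25 layer 72.3% of the ysE genes and 51.2% of the mesoderm genes reached 1 RPKM. In the opposite E9.25 layer 45.9% of the ysE genes and 10.1% of the mesoderm genes did so. In the E12.5 ysE library the markers listed below both E9.25 ysE libraries were 12 of 12 for endothelium, 11 of 11 for erythroid cells, 10 of 12 for mesenchyme and 8 of 12 for macrophages and progenitors, while 3 of the last list were above both. Kdr had 0.051 RPKM there, Col1a1 7.33 and Csf1r 8.59. The share of all genes below both E9.25 ysE libraries was not computed, so these counts stand without a background. The 12 reference genes also summed lower there, to 3280 RPKM against 6343 and 6662 in E9.25 ysE A and B. Visceral endoderm markers summed higher, to 52151 against 12323 and 13884. A lower level in that library is therefore not particular to the marker lists named. The endothelium markers were already low in E9.25 ysE, with sums of 9.21 and 12.4 RPKM in A and B. On chromosome X lay 5.75% of the ysE genes and 5.63% of the mesoderm genes with a position, beside 3.67% of all genes tested.

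Some genes of the trophoblast and decidua set the mesoderm A library apart. Prl3d1, a hormone of trophoblast giant cells, had 58.5 RPKM in mesoderm A and 0.544 in mesoderm B, with 4.35 and 5.2 in ysE, and Prl7a1 had 56.6 and 0.428, with 2.65 and 3.0. Prl8a2, a decidual hormone, had 194 RPKM in mesoderm A, 13 in mesoderm B and 11.6 and 35.3 in ysE. Cyp11a1, a steroid synthesis enzyme, had 19.4 and 0.796, with 2.19 and 2.28 in ysE. The ysE libraries therefore lay between the mesoderm libraries for Prl3d1, Prl7a1 and Cyp11a1. Prl7a1, Prl8a2, Cyp11a1 and 9 more genes were picked because mesoderm A was high and mesoderm B low, so their values are a description and no test of the layers is drawn from them. On the trophoblast list Prl2c2 (44.4 RPKM in mesoderm A and 0.643 in B), Prl3b1 (0.801 and 0.279) and Ascl2 (0.222 and 0.148) were also higher in A. Tpbpa (0.114 and 0.288) and Gcm1 (0.18 and 0.231) were lower in A, and Ctsq and Psg17 were at or below 0.013 in both. Of 6 tested markers on this list 3 were higher in mesoderm and 1, Gcm1, in ysE, with a median of -2.30. Over all transcripts tested 30.3% were higher in mesoderm and 30% in ysE. The 3 were Prl3b1, Tpbpa and Ascl2, at or below 0.801 RPKM in every library. The more abundant Prl3d1 (adjusted p = 0.19, edgeR) and Prl2c2 (adjusted p = 0.104, edgeR) did not pass. Without mesoderm A the median of the list was 0.12. The counts of layer-specific transcripts without mesoderm A were 5857 higher in ysE and 5970 higher in mesoderm, and 1613 and 3198 at 4-fold. The part of this difference between the mesoderm libraries in other results was not tested.

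**Figure D5:**
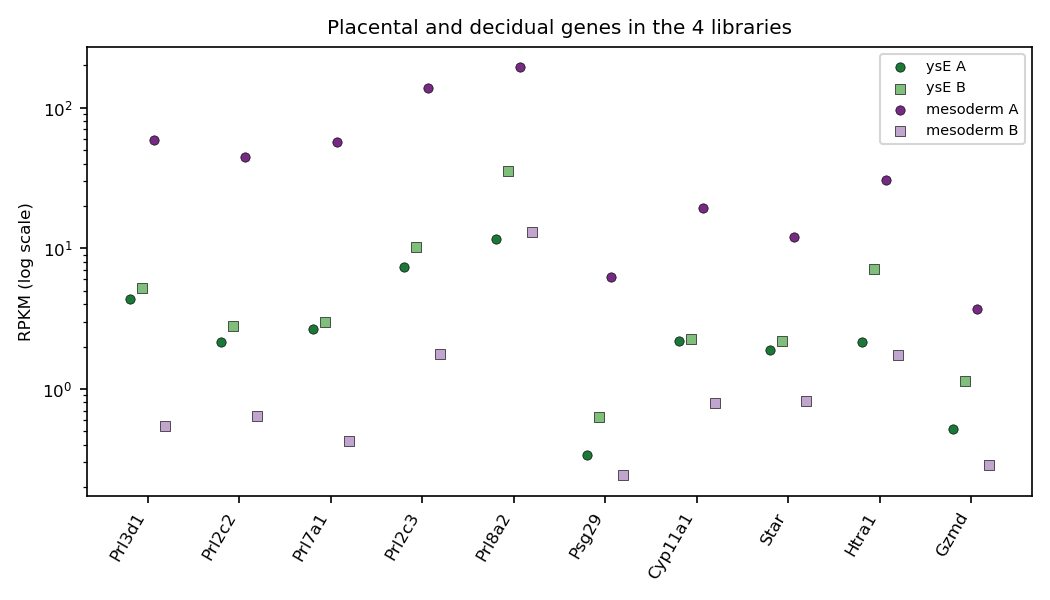
RPKM on a log axis of 10 placental and decidual genes in the 4 libraries, 1 point per library. Mesoderm A is the highest and mesoderm B the lowest for 9 of 10, Prl8a2 being lower in ysE A than in mesoderm B. All except Prl3d1 and Prl2c2 were picked because mesoderm A was high and mesoderm B low, so this count is no test.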

How the data were processed

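The 4 dUTP RNA-seq libraries of E9.25 ysE and VYS mesoderm (summed counts 107121229 to 169981821) were grouped by their labels. The authors aligned reads with GSNAP to mm10 and deposited, per RefSeq transcript, read counts without normalization and RPKM values made with RSeQC and custom scripts. The total behind the RPKM, the treatment of reads with several positions and the use of strand in counting are not given in the sources used here, so overlapping, antisense and near-identical transcripts are uncertain.

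Counts were tested in R 4.3.3 with edgeR 4.0.16 (filterByExpr, TMM factors 0.899 to 1.12, quasi-likelihood test, Benjamini-Hochberg adjustment over all 21824 transcripts, FDR 5%). The common biological coefficient of variation was 0.179. Alternatives used DESeq2 1.42.0 and limma 3.58.1, and summaries Python 3.11.15 with pandas 2.3.3. Each gene stands for its transcript of the largest mean count over the 4 libraries. Named genes were all members of 18 lists and, per layer, the 8 most abundant 4-fold genes and the 8 largest folds at 5 RPKM or more, of which some are printed. From the list of apolipoproteins and lipoprotein assembly 1 gene is not reported here, so no count of that list is given. The members and lists were chosen with earlier results of these data known. The chi-square per degree of freedom between libraries of a layer was 80.6 and 68.8, so no library was a duplicate.

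Gene and promoter positions and sequences came from RefSeq tables on GRCm38.p6, whose primary assembly is that of mm10, matched by transcript accession. For bisulfite data the authors deposited the percent of methylated reads per CpG and strand with the count of reads, called with BisSNP, and reads were summed within 1000 bases of a start. Peaks of H3K4me3 were deposited with a score by the authors, from MACS 1.4.2 on 1 pooled library against input, and any overlap with a window counted. Repeat and exon-part counts were not used here, and chromosomes without bisulfite calls gave no value. Counting errors matter where counts are near 0, and with 2 libraries against 2 the smallest two-sided exact permutation p is 0.333.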

Additional observations from a re-analysis of the deposited data

How the results depend on the processing

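The number of transcripts higher in ysE was 3401 with all 11 libraries in the fit, and 4305 and 4049 with limma on log2(RPKM + 1) and log2(RPKM + 0.1). The number higher in mesoderm was 4212 with all 11 libraries. At 4-fold, limma with the 2 pseudocounts gave 573 and 1043 transcripts in ysE and 871 and 2275 in mesoderm. All other alternatives stayed within 1.5 times of the 4 counts. With 1 library left out in turn, 5621 to 6414 and 5458 to 6442 transcripts were higher in ysE and mesoderm, and 1535 to 1822 and 3070 to 3649 at 4-fold. With the letters A and B as a replicate block the counts were 6146 and 6133, and 1658 and 3341 at 4-fold, so the block moved no count by 1.5 times. Letters of A and B are not stated to pair the layers, and the A minus B differences of the layers correlated at -0.121 across transcripts. With the crossed pairing, chosen after seeing the data, 6423 and 6560 were called.

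Log2 fold changes of Slc2a1 and Vegfa, which did not pass, changed sign: without TMM factors to -0.11 and -0.19, with library sizes free of the most abundant transcripts to -0.077 and -0.15, with limma to -0.085 and -0.15 (pseudocount 1) and -0.085 and -0.16 (0.1). With 1 library left out, so that a lone library is assumed to vary like the other layer, Msln ran from -1.72 to 0.50, Pdgfra from -0.50 to 0.17, Prl3d1 from -3.27 to 3.37, Prl8a2 from -2.82 to 1.06, Prl7a1 from -3.97 to 2.96 and Cyp11a1 from -2.76 to 1.73, each upper value without mesoderm A. Of other list members, Kitl lost its call without ysE B or mesoderm B, and Actb without 3 of the libraries in turn. Of the 153 genes called among the 176 tested on the 17 complete lists, 27 lost the call with all 11 libraries and 0 to 7 under any other alternative, and none was called in the opposite direction. Over 119 genes followed one by one, most of them printed, and all alternatives, 1815 values kept direction and side of the threshold, 17 lost the call, 45 gained one and 14 changed sign. The cause was not tested.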

Other observations

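Sex-linked transcripts differed between the litter pools in the same direction in both layers. Xist, the RNA of the inactive X chromosome, had 2.97 and 4.18 RPKM in ysE A and B and 1.22 and 5.02 in mesoderm A and B. The Y-linked Ddx3y had 23.4 and 9.87 RPKM in ysE and 31.6 and 18.8 in mesoderm, and Eif2s3y had 33.3 and 15.5 in ysE and 38.5 and 19.9 in mesoderm. In both layers A was thus lower in Xist and higher in the 2 Y-linked genes. Across all transcripts the A minus B differences of the layers correlated at -0.121, a description over transcripts that share the libraries.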
